A study of Mus musculus with 17 samples.

Results

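The chemokine CXCL12, its receptors and the G-protein machinery below them are described here by 8 genes, chosen by symbol: the ligand Cxcl12, the receptors Cxcr4 and Ackr3, the inhibitory G-alpha subunits Gnai2 and Gnai3, the regulators Rgs1 and Rgs2, and the arrestin Arrb2. All 8 were found in each of the 4 tables, which list 19782 genes for the knockout-experiment macrophages, 17130 for the CXCR4 sort, 18818 for cultured macrophages and 26584 for P4 basal cells. In the P4 table Ackr3 carries its older symbol, Cxcr7. RNA was sequenced from 17 libraries of virgin mouse mammary gland, in 12 groups.

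Macrophages were gated on F4/80 and CD11b in 15 of the libraries. The LysM-Cre control (LysmCre+), the LysM-Cre Cxcr4 knockout (LysmCre+, Cxcr4fl/fl), the K8-Cre control (K8Cre+) and the K8-Cre Cxcl12 knockout (K8Cre+, Cxcl12fl/fl) had 2 libraries each. All 8 of these libraries therefore came from mice with a Cre transgene, controls included. LysM-Cre acts in myeloid cells at large, so the Cxcr4 deletion is not limited to mammary macrophages. K8-Cre acts in luminal epithelium, so neither macrophages nor P4 basal cells are themselves the target of the Cxcl12 deletion. A further 3 libraries, from wild type mice, were sorted by surface CXCR4, 2 as CXCR4+ and 1 as CXCR4-. The 4 cultured libraries were wild type macrophages kept in RPMI with serum: 1 untreated, 1 given recombinant CXCL12, 1 given the AKT inhibitor GSK690693 and 1 given both, with no dose or time in the labels. P4 basal cells (Lin-CD24+CD29hi), a fraction enriched for mammary stem cells, gave 1 K8Cre+ control and 1 K8Cre+, Cxcl12fl/fl library. The labels do not say that repeats came from separate mice, so p-values measure the spread between these libraries, which may be technical.

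CXCL12 is a secreted chemokine that binds CXCR4, a receptor coupled to Gi proteins, and ACKR3, an atypical receptor that takes up the ligand and signals through arrestin more than through G proteins. When CXCR4 is engaged, the G-alpha subunit exchanges its nucleotide and frees the G-beta-gamma dimer, which activates PI3-kinase and AKT. RGS proteins speed the return of G-alpha to its resting state, and receptor kinases with arrestins end the signal and draw the receptor into the cell. In the mammary gland the axis is known for guiding leukocytes and for exchange between stroma and epithelium.

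Depth was 8.60 to 37.2 M reads in the knockout-experiment libraries, 23.2 to 28.8 M in the sort and 14.3 to 29.0 M in culture. For P4 cells no depth could be had from FPKM. Between 8.23% and 37.1% of listed genes were at 0 in single knockout-experiment libraries. Levels are in CPM, reads scaled to a common library total, and the 3 macrophage tables were normalized separately. The macrophage genes Adgre1, Itgam and Csf1r were present in all 15 macrophage libraries, at 148 CPM or above. The basal genes Krt5, Krt14 and Acta2 were present in both P4 libraries, at 436 FPKM or above (fragments normalized to transcript length and depth).

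The genes lie on 5 chromosomes of GRCm38, and all are protein-coding in GENCODE M21. Cxcr4 (chr1:128588199-128592293), Ackr3 (chr1:90203980-90216751), Rgs1 (chr1:144242296-144249242) and Rgs2 (chr1:143999338-144004161) share chromosome 1, where Rgs2 and Rgs1 are close neighbours. Cxcl12 lies at chr6:117168535-117181367, Gnai2 at chr9:107614125-107635367, Gnai3 at chr3:108107280-108146146 and Arrb2 at chr11:70432635-70440828.

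Promoters are shown for the receptor pair, whose balance differed between macrophages and P4 cells, and for Rgs2, the 1 gene of the 8 that passed a test, in a sort with 1 CXCR4- library and not under every setting. Each is the 250 bases upstream of the RefSeq start on GRCm38.p6, 5′ to 3′ on the gene's strand, at chr1:128592300-128592549 (minus strand) for Cxcr4, chr1:90203730-90203979 (plus) for Ackr3 and chr1:144004150-144004399 (minus) for Rgs2. Capitals mark, on either strand, the TATA box, the CCAAT box and the cyclic AMP half-site, whose letters are spelled out after the sequences.
Cxcr4: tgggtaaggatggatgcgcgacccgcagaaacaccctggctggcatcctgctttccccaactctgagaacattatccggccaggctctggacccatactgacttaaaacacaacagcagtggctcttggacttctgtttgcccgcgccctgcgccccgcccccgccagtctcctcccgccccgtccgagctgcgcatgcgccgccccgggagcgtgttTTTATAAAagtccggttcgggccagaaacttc
Ackr3: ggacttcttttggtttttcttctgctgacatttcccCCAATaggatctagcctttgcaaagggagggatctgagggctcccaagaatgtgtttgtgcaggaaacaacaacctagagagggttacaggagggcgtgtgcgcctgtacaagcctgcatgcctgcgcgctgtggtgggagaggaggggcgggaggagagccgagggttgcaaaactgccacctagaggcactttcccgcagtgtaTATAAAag
Rgs2: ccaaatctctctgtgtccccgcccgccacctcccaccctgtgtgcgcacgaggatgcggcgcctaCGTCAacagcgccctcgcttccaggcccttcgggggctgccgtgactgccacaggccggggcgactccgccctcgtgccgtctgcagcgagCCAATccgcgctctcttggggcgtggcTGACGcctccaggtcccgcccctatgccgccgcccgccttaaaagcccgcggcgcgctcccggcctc
The TATA-box letters TATAAA occurred in the Cxcr4 and Ackr3 windows and in 12.4% of the 32851 promoters of the same length. In Cxcr4 the matches on the 2 strands overlap, beginning at -32 and -30 from the RefSeq start. In Ackr3 the match begins at -8, so the 2 windows differ in its position. TGACG, the half-site of the cyclic AMP response element, occurred on both strands of the Rgs2 window and in 17.8% of promoters. CCAAT occurred in the Ackr3 and Rgs2 windows and in 33.8% of promoters. A match describes letters in the window and shows no binding.

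Across the freshly sorted macrophages RNA of the receptor gene Cxcr4 was abundant and that of Ackr3 scarce. In the 11 fresh libraries Cxcr4 ran from 140 to 875 CPM with a median of 564, and Ackr3 from 1.51 to 11.9 CPM with a median of 6.46. Divided by transcript length, Cxcr4 exceeded Ackr3 by 25.7 to 634 times in the 8 knockout-experiment libraries and by 125 to 169 times in the 3 sorted ones. P4 basal cells had the opposite balance: per length, Cxcr4 was 0.626 of Ackr3 in the control and 0.149 in the Cxcl12 knockout. Cultured macrophages lay between, at 4.23 to 36.5.

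**Figure D1:**
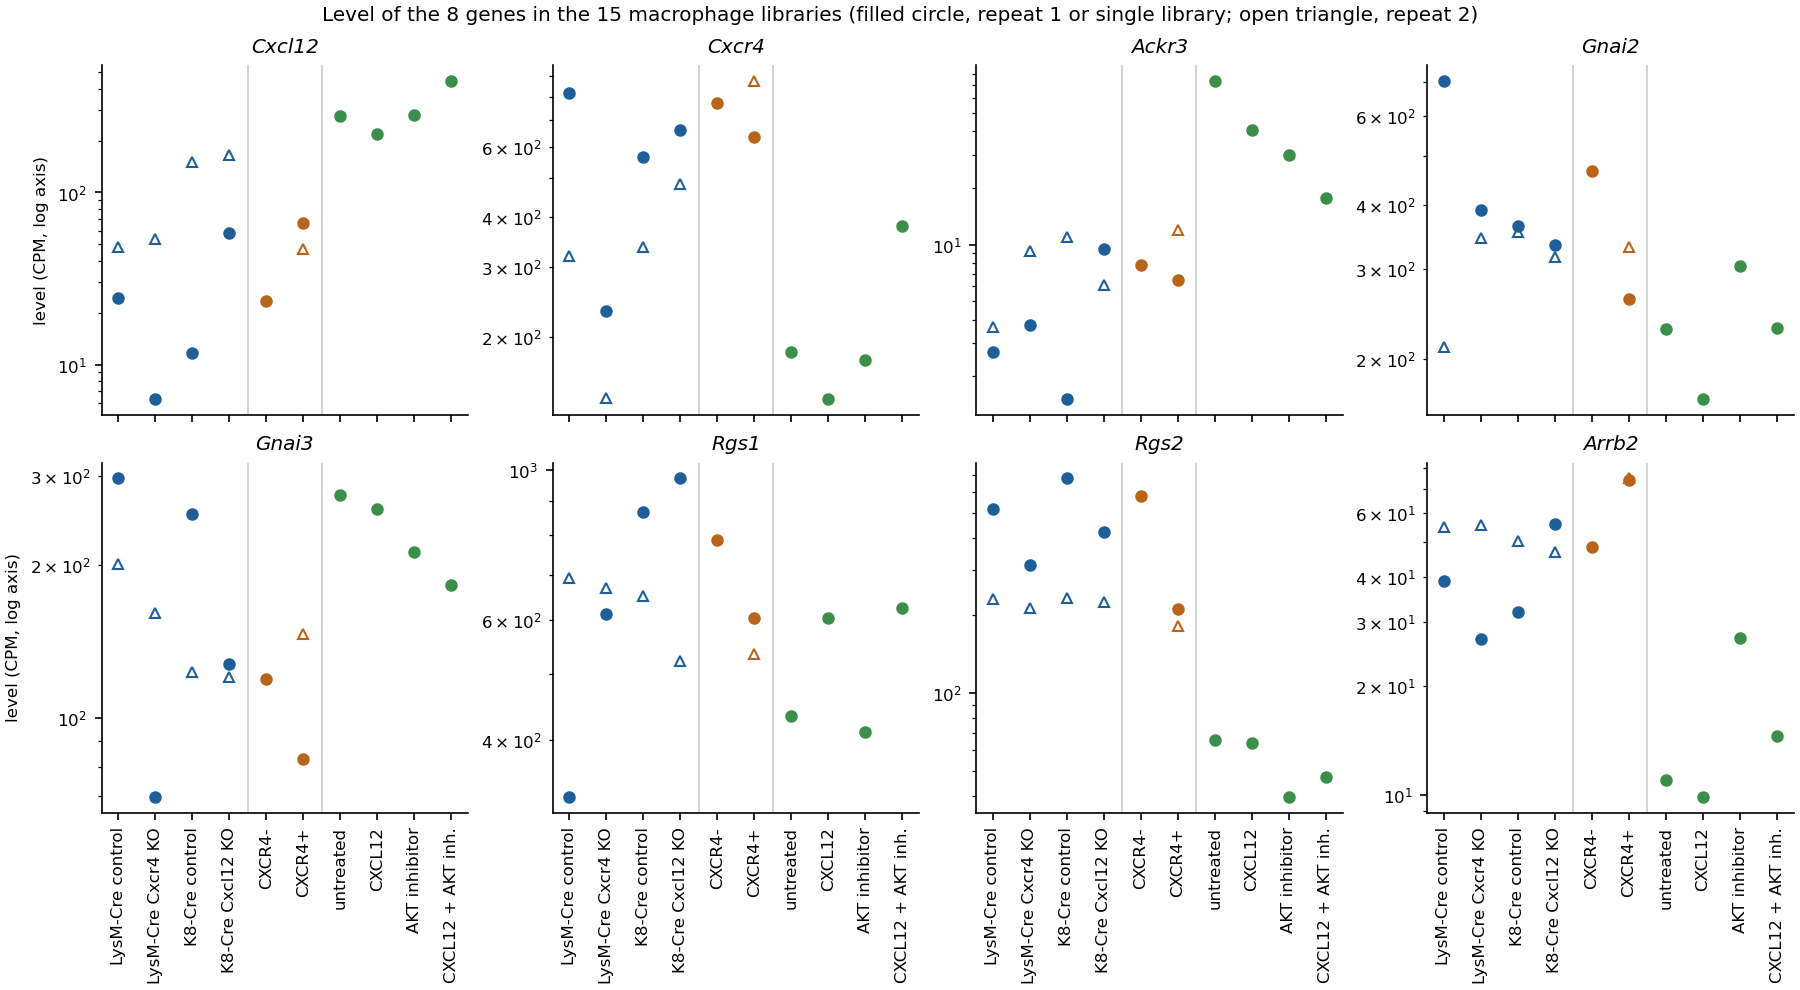
Level of each gene in CPM on a log axis, by group, for 15 macrophage libraries (blue, knockout experiments; orange, CXCR4 sort; green, culture; filled circles, repeat 1 or a single library; open triangles, repeat 2). Rgs2 sits between 213 and 234 CPM in the 4 repeat 2 libraries of the knockout experiments and between 313 and 678 CPM in the 4 repeat 1 libraries.

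Cxcl12, the ligand, was the most variable of the 8 in fresh macrophages, with a 26.1-fold span from 6.29 to 164 CPM. The LysM-Cre controls had 24.3 and 48.1 CPM and the LysM-Cre Cxcr4 knockouts 6.29 and 53.9 CPM. The K8-Cre controls had 11.7 and 149 CPM and the K8-Cre Cxcl12 knockouts 58.2 and 164 CPM. Within each of these groups the repeat 2 library was the higher, and knockout and control overlapped in both lines. The change in the Cxcr4 knockout was -1.80 on the log2(CPM + 1) scale between the repeat 1 libraries and 0.16 between the repeat 2 libraries. In the Cxcl12 knockout these were 2.22 and 0.13. Without K8-Cre control repeat 1 the Cxcl12 knockout change turned from 1.18 (SE 0.94) to -0.61. Without Cxcr4 knockout repeat 1 the Cxcr4 knockout change turned from -0.82 (SE 0.94) to 0.64.

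The ligand's level moved with endothelial markers in most knockout-experiment libraries. LysM-Cre control repeat 1 was an exception, with 143 CPM of markers and 24.3 CPM of Cxcl12. The summed level of 8 endothelial genes was 6.75 CPM in K8-Cre control repeat 1 and 44.0 CPM in Cxcr4 knockout repeat 1, the 2 libraries with the lowest Cxcl12. It was 213 and 195 CPM in K8-Cre control repeat 2 and K8-Cre Cxcl12 knockout repeat 2, the 2 with the highest. Over the 8 libraries Pearson's r between the log2 values was 0.74, a description of libraries that also differ in depth. The defining gene Kdr was at 0 in at least 1 of these libraries, while Cdh5 ran from 0.116 to 70.9 CPM and Pecam1 from 0.587 to 66.5 CPM. The genes most like Cxcl12 over the 8 libraries, among 8982 genes averaging at least 10 CPM, were Zfp704 (r = 0.98), Ptprb (0.97), an endothelial phosphatase, and Tjp1 (0.96), a tight-junction protein. They are the top 3 of that ranking, so a high r follows in part from the selection. The part of endothelial RNA in the Cxcl12 levels was not tested. In bulk samples, fewer cells of a type and less RNA per cell cannot be told apart.

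**Figure D2:**
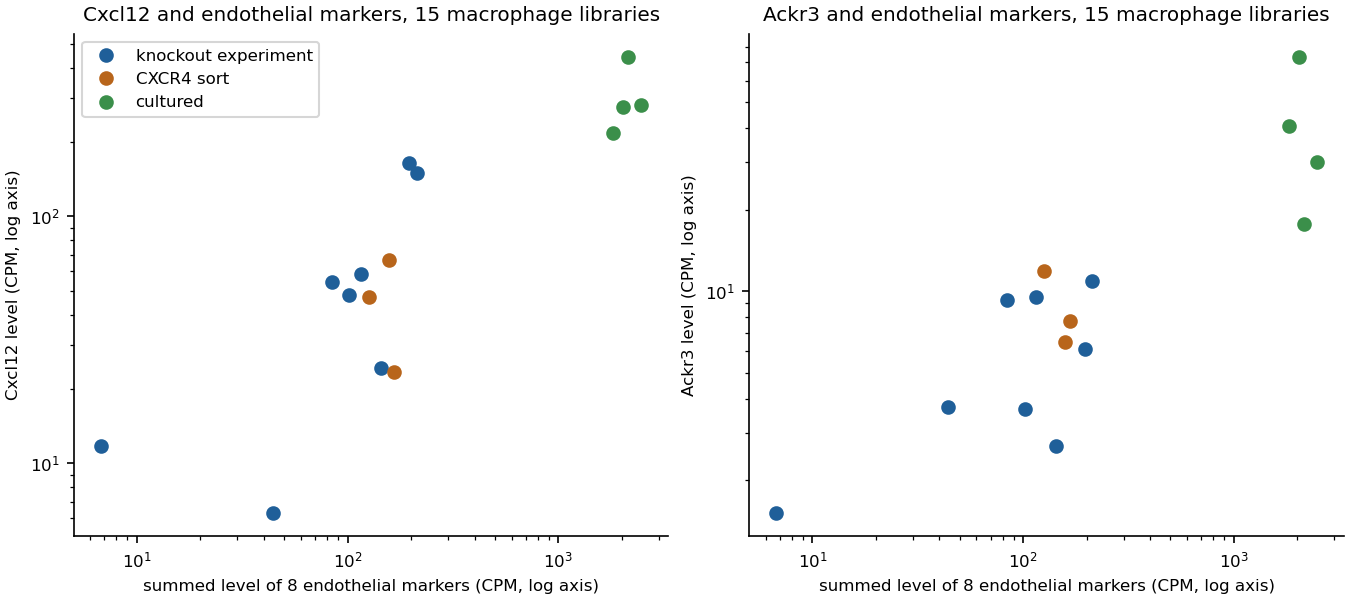
Level of Cxcl12 (left) and Ackr3 (right) against the summed level of 8 endothelial markers, both in CPM on log axes, 1 point for each of 15 macrophage libraries. The 4 cultured libraries lie at 1817 to 2472 CPM of markers and the 11 fresh ones at 6.75 to 213 CPM.

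Cxcr4, the targeted receptor in the myeloid knockout, was lower in both knockout libraries than in both controls. The controls had 819 and 318 CPM and the knockouts 232 and 140 CPM, so the groups did not overlap. Groups apart in this direction were found for 8.76% of the 17275 genes tested. The log2 change was -1.81 between the repeat 1 libraries and -1.18 between the repeat 2 libraries; the fitted change was -1.49 (SE 0.49, limma adjusted p = 1.0). Cxcr4 ranked 28th of all genes by p, at an unadjusted p of 0.00272 in limma. Leaving out control repeat 2 moved the change to -2.17 with a limma adjusted p of 0.0145, and leaving out control repeat 1 moved it to -0.81. Reads from outside the floxed segment, which the labels do not name, count toward these levels.

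The macrophage marker sum moved with Cxcr4: it was 12627 and 4404 CPM in the LysM-Cre controls and 2726 and 2018 CPM in the knockouts. None of its 3 defining genes was at 0. Of the 8 macrophage markers, 6 had a fitted change above 0 and 2 below, and 1 passed as lower. Their median change was 0.19 beside 0.14 over all genes, so the sum fell while most of its genes did not. Dissociation stress genes summed to 22834 and 12486 CPM in the controls and 13674 and 12480 CPM in the knockouts, which overlapped. Over the 8 libraries r with Cxcr4 was 0.88 for the macrophage sum and 0.79 for the stress sum. The part of either in the Cxcr4 change was not tested. In the K8-Cre line Cxcr4 had 564 and 337 CPM in controls and 661 and 483 CPM in Cxcl12 knockouts, which overlapped (change 0.37, SE 0.49). The difference between the 2 knockouts' Cxcr4 changes was -1.87 (SE 0.69, limma adjusted p = 1.0), -2.04 in repeat 1 and -1.69 in repeat 2. Genes most like Cxcr4 over the 8 libraries were Fam117b (r = 0.95), Ccdc117 (0.92) and B4galt7 (0.91).

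Cxcr4 RNA did not separate the libraries sorted on surface CXCR4. The CXCR4+ libraries had 632 and 875 CPM, on both sides of the CXCR4- library at 772 CPM. The fitted difference was -0.05 (SE 0.33, 95% interval -0.71 to 0.60), and with median-ratio scaling it was 0.11. By mean level the sorted groups stood highest of the 10 macrophage groups, and from there down to the K8-Cre controls each group overlapped its neighbour. The Cxcr4 knockouts, at a mean of 186 CPM (SD 64.9, n = 2), ranked seventh.

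Ackr3, the atypical receptor, was low in fresh macrophages, with 13 reads in the lowest library. The LysM-Cre controls had 2.69 and 3.68 CPM and the Cxcr4 knockouts 3.74 and 9.29 CPM. The knockouts were thus just above the controls, as were 16.7% of genes, and the change of 0.75 (SE 1.88) was well inside its error. The K8-Cre controls had 1.51 and 10.9 CPM and the Cxcl12 knockouts 9.53 and 6.12 CPM, with overlap. In the sort the CXCR4+ libraries had 6.46 and 11.9 CPM against 7.76 CPM. Its nearest genes over the 8 libraries were Mkrn2 (r = 0.97), Rps23 (0.96) and R3hcc1l (0.96). K8-Cre control repeat 1, lowest in Ackr3, was also lowest in endothelial markers, and r with their sum was 0.68 over the 8 libraries; the part of those markers was not tested.

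Gnai2, the main inhibitory G-alpha subunit of leukocytes, exceeded Gnai3 per length in every fresh library, by 1.54 to 8.26 times. The LysM-Cre controls had 702 and 211 CPM of Gnai2 and the Cxcr4 knockouts 392 and 345 CPM, between them. The change was -0.84 between the repeat 1 libraries and 0.71 between the repeat 2 libraries. In the K8-Cre line all 4 libraries lay within 316 to 364 CPM, with 364 and 355 in controls and 334 and 316 in Cxcl12 knockouts. The groups were apart there, lower in the knockout, as for 8.03% of genes, by -0.15 (SE 0.49).

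Gnai3, its close relative, was lower in both Cxcr4 knockouts, at 69.9 and 161 CPM, than in both controls, at 297 and 201 CPM, as were 8.76% of genes. The change was -2.07 in repeat 1 and -0.32 in repeat 2, and -1.20 in the fit (SE 0.59, unadjusted p = 0.0445, limma adjusted p = 1.0). Leaving out single libraries moved it to between -1.79 and -0.60. In the K8-Cre line, controls at 253 and 123 CPM overlapped with Cxcl12 knockouts at 128 and 120 CPM. In the sort, CXCR4+ libraries at 83.0 and 147 CPM lay on both sides of the CXCR4- library at 119 CPM.

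Rgs1, a regulator abundant in activated leukocytes, was high throughout, from 330 to 970 CPM in the 11 fresh libraries. The LysM-Cre controls, at 330 and 693 CPM, spanned the Cxcr4 knockouts at 613 and 669 CPM. The K8-Cre controls, at 866 and 652 CPM, lay within the range of the Cxcl12 knockouts at 970 and 522 CPM. Changes were 0.42 (SE 0.44) and -0.08 (SE 0.44). Genes most like it were Grsf1, Ddx47 and Cers6, each at r = 0.98.

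Rgs2, a regulator best known for acting on Gq, was lower in both CXCR4+ libraries than in the single CXCR4- library. The CXCR4+ libraries had 212 and 181 CPM against 582 CPM. Both lay far below it, by -1.46 and -1.68 on the log2 scale, while they differed from each other by 0.22. The fitted difference was -1.57 (SE 0.33, limma adjusted p = 0.000105). Of the 8 genes it was the 1 that passed, beside 8.46% of the 14411 genes tested (3.4% lower). The fit had 1 residual degree of freedom, so the spread was taken from all genes, and the single CXCR4- library was assumed to vary like the CXCR4+ pair. The p therefore compares these 3 libraries and does not measure variation between CXCR4- samples. Without the mean-variance trend the limma adjusted p was 0.340, and without the filter on low levels 0.258, so the call was lost under both settings.

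Other cell-type markers moved with the sort. In the CXCR4- library the dendritic marker sum was 865 CPM against 327 and 235 in the CXCR4+ libraries, the monocyte sum 2013 against 956 and 935, and the eosinophil sum 264 against 30.3 and 24.5. The macrophage sum was 7113 CPM against 9918 and 11682. The 20 dissociation stress genes summed to 22812 CPM against 19374 and 16329. By gene the dendritic markers were split, with 2 of 8 higher and 6 lower in CXCR4+ cells, while all 8 monocyte markers were lower. The part of these sums in the Rgs2 difference was not tested.

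Rgs2 also differed by repeat number in the knockout experiments. The repeat 1 libraries had 518, 313, 678 and 421 CPM (LysM-Cre control, Cxcr4 knockout, K8-Cre control, Cxcl12 knockout). The repeat 2 libraries, in the same order, had 231, 213, 234 and 225 CPM. All 4 repeat 2 libraries were lower than all 4 repeat 1 libraries, which was so for 2.87% of genes, and the mean difference was -1.03 beside a median of 0.34 over all genes. The repeat 1 libraries were shallower, at 8.60 to 16.8 M reads against 20.1 to 37.2 M, and held more B cell marker RNA, at 388 to 804 CPM for 8 genes against 178 to 363 CPM. Dendritic sums were 1251 to 1767 CPM in repeat 1 against 496 to 936 CPM, and neutrophil sums 168 to 391 against 24.3 to 153 CPM. The other 10 of 13 sums overlapped. Small noncoding RNA took 2.96% to 6.75% of the total in repeat 1 and 15.2% to 19.3% in repeat 2. Cd79a was at 0 in at least 1 library. The part of depth, of those markers and of noncoding RNA was not tested. The knockout changes, -0.42 (SE 0.51) and -0.37 (SE 0.51), were smaller than this difference. Its most similar genes were Cd300ld5 (r = 0.99), H3f3a (0.97) and Poldip3 (0.97), and for Cd300ld5 r was -0.81 among the 4 repeat 2 libraries alone.

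Arrb2, the arrestin that binds phosphorylated chemokine receptors, stayed within 26.8 to 74.7 CPM in fresh macrophages. The LysM-Cre controls had 38.9 and 54.7 CPM and the Cxcr4 knockouts 26.8 and 55.6 CPM. The K8-Cre controls had 32.0 and 50.1 CPM and the Cxcl12 knockouts 56.1 and 46.9 CPM. Groups overlapped in both lines. The CXCR4+ libraries, at 74.2 and 74.7 CPM, were above the CXCR4- library at 48.4 CPM, a difference of 0.61 (SE 0.42, limma adjusted p = 0.454).

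In the sort, 5 of the 8 genes had both CXCR4+ libraries on 1 side of the CXCR4- library: Cxcl12 and Arrb2 above it, as for 32.1% of genes, and Gnai2, Rgs1 and Rgs2 below it, as for 44.6%. With 3 libraries such a position is common. Gnai2 had 261 and 332 CPM against 467 CPM, a difference of -0.66 (SE 0.33, limma adjusted p = 0.249), which passed after quantile normalization at -0.86 (limma adjusted p = 0.0495). Rgs1 had 605 and 534 CPM against 789 CPM (difference -0.47, SE 0.33). Cxcl12 had 66.3 and 46.9 CPM against 23.4 CPM; endothelial sums were 158 and 126 against 167 CPM there, so the 2 did not move together in the sort. Fibroblast sums were 199 and 456 CPM against 112 CPM, and their part in the Cxcl12 difference was not tested.

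**Figure D3:**
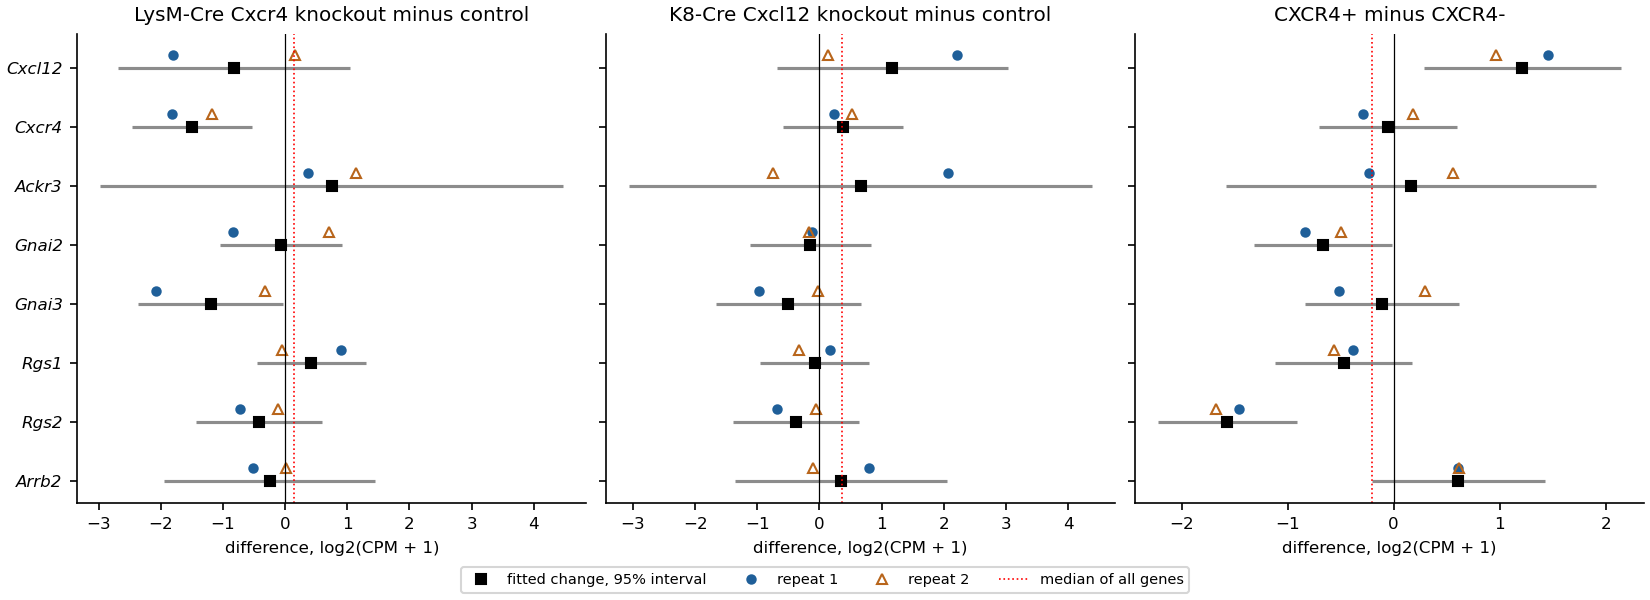
Change of each gene on the log2(CPM + 1) scale in both knockouts and the CXCR4 sort: squares with bars, fitted change and 95% interval; circles and triangles, repeats 1 and 2 on their own (in the sort, each CXCR4+ library less the CXCR4- library); dotted line, median of all genes. Rgs2 in the sort is the 1 change that passed.

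In the knockout fit 1 of 17275 genes (0.00579%) passed for the Cxcr4 knockout and 0 (0%) for the Cxcl12 knockout. An unadjusted p under 0.05 in limma was found for 575 genes (3.33%) in the Cxcr4 knockout and 491 (2.84%) in the Cxcl12 knockout. In the Cxcl12 knockout 1 gene passed when repeat number was a block. None of the 8 genes passed in either knockout. Of the 94 genes tested in 9 lists of ligands, receptors, G-protein subunits, regulators and effectors, 0 passed in either knockout. In the Cxcr4 knockout the 14 RGS genes had a median change of -0.18 (5 above 0, 9 below) and the 13 G-alpha genes -0.002, beside 0.14 over all genes. The 11 G-beta and G-gamma genes had a median of -0.58 (3 above, 8 below). Their median was closer to the middle in single repeats, -0.16 between the repeat 1 libraries and -0.23 between the repeat 2 libraries. Over all genes 57.8% were above 0 and 42.2% below. In the Cxcl12 knockout the RGS median was 0.74 and the G-alpha median -0.09, beside 0.36 over all genes. That RGS median was 1.41 between the repeat 1 libraries and -0.03 between the repeat 2 libraries.

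In the sort 13 of 86 such genes passed, 7 higher and 6 lower in CXCR4+ cells. Over all genes 8.46% passed, 5.06% higher and 3.4% lower. Of 11 G-alpha genes tested 3 passed, all higher in CXCR4+ cells, and the median of the 11 was -0.11 beside -0.20 over all genes. Gna12 had 208 and 167 CPM against 26.8 CPM (difference 2.76), and Gna13, its close relative, was higher by 2.06. Gnaq, the alpha subunit of the phospholipase pathway, was higher by 1.16, with 183 and 180 CPM against 80.4 CPM. Among RGS genes Rgs10 was higher (1.16) and Rgs12 lower (-3.80), beside Rgs2. Grk3, a kinase that phosphorylates activated receptors, had 170 and 97.2 CPM against 457 CPM (-1.82). Dpp4, a protease that inactivates CXCL12, had 32.6 and 27.4 CPM against 190 CPM (-2.63), and Mmp9, which can also cleave it, was higher (1.14). Gng12 (1.40) and Adcy9 (1.63) were higher, and Elmo1 (-1.12) was lower. With no filter or no trend, 0 of all genes passed in the sort. The lists were chosen with earlier results known. The dendritic, monocyte and eosinophil sums given above were lower in the CXCR4+ libraries and the macrophage sum higher. Their part in these differences was not tested.

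Cultured macrophages held more Cxcl12 and Ackr3 and less Rgs2 than every fresh library, across tables that were normalized separately. The listed gene starts also differed, matching GENCODE M21 for 2.16% of genes in culture and 99.5% in both fresh tables. The part of any difference in gene annotation was not tested. Cxcl12 was 218 to 443 CPM in the 4 cultured libraries against at most 164 CPM in the 11 fresh ones. Ackr3 was 17.6 to 73.6 CPM against at most 11.9 CPM. Rgs2 was 39.7 to 65.5 CPM against at least 181 CPM. Cultured libraries were wholly above fresh ones for 7.04% of 14254 genes and wholly below for 3.94%. The other 5 genes overlapped, with Arrb2 mostly lower in culture at 9.88 to 27.0 CPM. The endothelial sum was 1817 to 2472 CPM in culture against 6.75 to 213 CPM in fresh libraries, with Cdh5 at 678 to 869 CPM and none of the 3 defining genes at 0. Adipocyte markers summed to 408 to 598 CPM in culture against 25.3 to 138 CPM, and monocyte markers to 543 to 682 CPM against 935 to 2013 CPM. The other 10 of 13 sums overlapped. The stress sum was 12538 to 13971 CPM in culture and 12480 to 23780 CPM in fresh libraries. Their part in these levels was not tested.

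Each cultured and each P4 condition was 1 library, so the ratios below have no replicate check and no test. The spread to hold them against is that between repeats of the fresh groups, where 5 pairs differed by up to 1.36 on the log2 scale for Cxcr4, 3.56 for Cxcl12, 2.25 for Ackr3, 1.73 for Gnai2 and 1.02 for Arrb2.

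Ackr3 was highest in the untreated culture and lowest with both agents: 73.6 CPM untreated, 40.6 with CXCL12, 29.9 with the AKT inhibitor and 17.6 with both. The log2 ratios to untreated were -0.86, -1.30 and -2.05, all smaller than the largest gap between fresh repeats. That gap, 2.25 on the log2(CPM + 1) scale, was between K8-Cre controls at 1.51 and 10.9 CPM, below the cultured levels. The next largest was 1.12, in the Cxcr4 knockouts. Cxcr4 had 184 CPM untreated, 139 with CXCL12, 175 with the inhibitor and 379 with both. The library with both agents was above the other 3, at a log2 ratio of 1.05 to untreated and 1.12 to the inhibitor alone. Both ratios were smaller than the largest gap between fresh repeats, 1.36, and the ratio to CXCL12 alone, 1.44, was slightly larger. This library stood apart in other measures too. It had 30.98% of listed genes at 0 against 12.5% to 19.7% in the other 3, and 10165 genes at 1 CPM or more against 13133 to 14432. Its macrophage marker sum was 8947 CPM against 5678 to 6731 CPM. The part of these in its levels was not tested. Cxcl12 RNA was also highest there, with 443 CPM under both agents against 277 untreated, 218 with CXCL12 and 282 with the inhibitor.

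Of the 8 genes, 0 were at least 2-fold apart with CXCL12 alone, beside 26.3% of genes. With the inhibitor 2 were, Ackr3 lower and Arrb2 higher, beside 36.3%. With both agents 2 were, Cxcr4 higher and Ackr3 lower, beside 48.2%. With both against the inhibitor alone it was Cxcr4, beside 48.9%, and with both against CXCL12 alone Cxcl12, Cxcr4 and Ackr3, beside 47.7%. Members past 2-fold were thus no more frequent than genes at large.

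Gnai2 had 229, 166, 303 and 230 CPM (untreated, CXCL12, inhibitor, both) and Gnai3 275, 259, 212 and 183 CPM. Per length their ratio was 0.945 to 2.11 in culture, against 1.54 or above in fresh macrophages. Rgs1 had 434, 605, 410 and 625 CPM, the higher values being those of the libraries given CXCL12. The log2 ratios for CXCL12 were 0.48 without and 0.61 with the inhibitor, smaller than the largest gap of 1.07 between fresh repeats. Rgs2 had 65.5, 64.1, 39.7 and 47.1 CPM, and Arrb2 11.0, 9.88, 27.0 and 14.5 CPM. The log2 ratio of Arrb2 with the inhibitor to untreated, 1.29, was larger than its largest gap between fresh repeats.

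**Figure D4:**
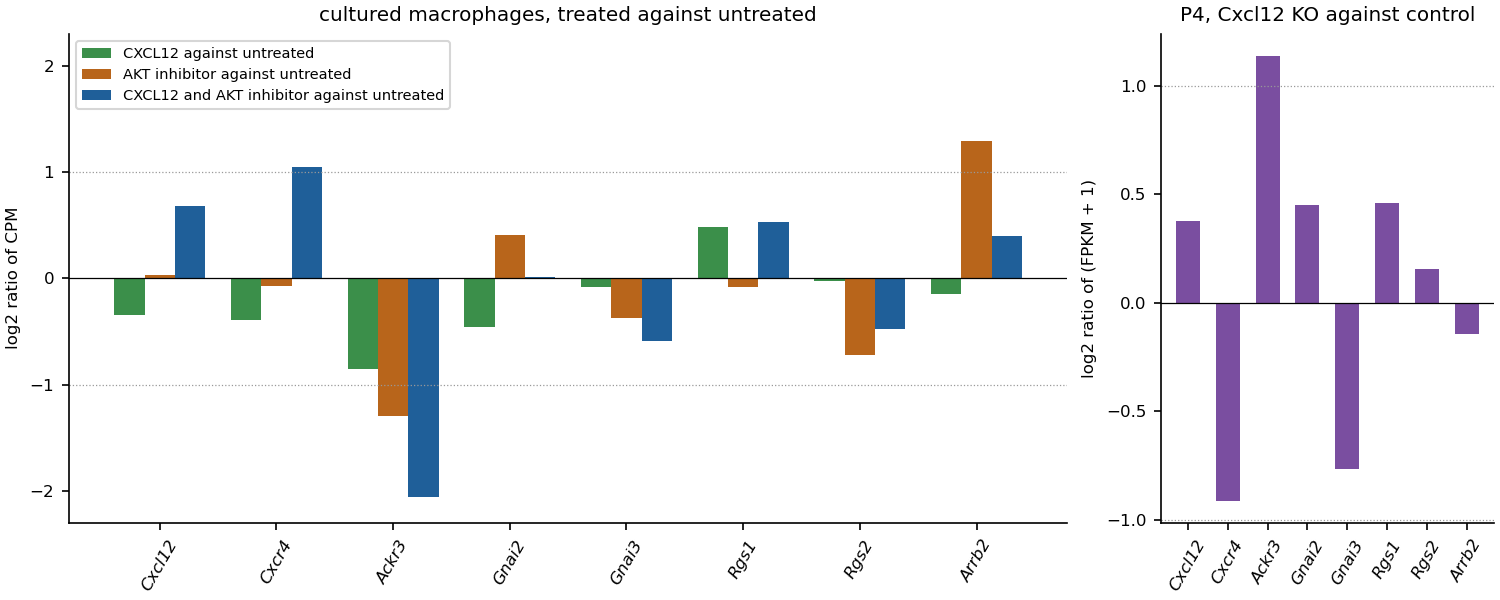
Log2 ratio of each gene, cultured macrophages against the untreated library (left, CPM) and the P4 Cxcl12 knockout against its control (right, FPKM + 1), with 1 library per condition and dotted lines at 2-fold. Ackr3 is the lowest bar under each culture treatment and the highest in P4 cells.

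Among the related genes of at least 10 CPM, CXCL12 alone put 11 of 72 at least 2-fold apart, 5 higher and 6 lower, beside the 26.3% of all genes given above. The inhibitor put 20 of 74 apart (27.0%, beside 36.3% of all genes), 10 higher and 10 lower. Both agents against untreated put 25 of 70 apart (35.7%, beside 48.2%), 6 higher and 19 lower. Over all genes, higher and lower shares were 12% and 14.3% with CXCL12, 19.9% and 16.4% with the inhibitor, and 22.9% and 25.3% with both. Among 24 effectors, both agents put 3 higher and 7 lower. Pik3r6, an adaptor of the PI3-kinase that G-beta-gamma activates, had 4.87 CPM untreated, 23.1 with CXCL12, 31.5 with the inhibitor and 126 with both. Pik3cg, another effector, went the other way, at 26.3, 21.9, 6.91 and 0.811 CPM in the same order. Pak1 had 17.4, 3.17, 6.49 and 0 CPM. Mapk3, the kinase ERK1, had 6.10 CPM untreated, 17.7 with CXCL12, 63.7 with the inhibitor and 62.6 with both. Rgs18, a regulator of blood cells, was listed at 0 CPM untreated and with the inhibitor and at 30.4 CPM with both. Cxcr6, a related chemokine receptor, had 40.6 CPM untreated, 26.9 with CXCL12 and 10.1 with the inhibitor, and was listed at 0 with both, in the cultured library with the most genes at 0.

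P4 basal cells carried high levels of Cxcl12 and Ackr3 RNA. Cxcl12 had 269.9 FPKM in the control and 349.97 FPKM in the luminal Cxcl12 knockout, above 99.3% of listed genes in the control. The knockout library thus had the higher value, with 1 library each, in cells that are not the target of the luminal deletion. Ackr3 had 108 and 239 FPKM and Cxcr4 67.8 and 35.6 FPKM. The log2 ratios of FPKM + 1, knockout to control, were 1.14 for Ackr3 and -0.91 for Cxcr4. Ackr3 was the 1 gene of the 8 past 2-fold, beside 13.3% of 6599 genes.

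The other P4 values were lower or closer together. Gnai2 had 111 and 152 FPKM and Gnai3 75.6 and 43.9 FPKM, for log2 ratios of 0.45 and -0.77. Rgs2 had 32.5 and 36.2 FPKM. Rgs1 had 0.877 and 1.58 FPKM and Arrb2 1.48 and 1.24 FPKM, both under the 10 FPKM minimum used for ratios. Rgs1 over Rgs2 was 0.027 and 0.044 per length in P4 cells, 0.501 to 2.47 in knockout-experiment macrophages and 5.21 to 10.4 in culture. Fibroblast markers summed to 306 and 504 FPKM and basal markers to 5518 and 7119 FPKM, both higher in the knockout library. Of the 13 sums 11 were higher there, among them dissociation stress genes at 5588 and 7703 FPKM, luminal markers at 351 and 479, monocyte markers at 165 and 286, and adipocyte markers at 8.32 and 34.0 FPKM. The part of those markers in the Ackr3 ratio was not tested. Among related genes Gnai1 had 33.6 and 11.0 FPKM, Rgs5 8.84 and 23.5 FPKM, and Ackr1, the atypical receptor of venules and red cells, 1.47 and 20.5 FPKM.

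**Figure D5:**
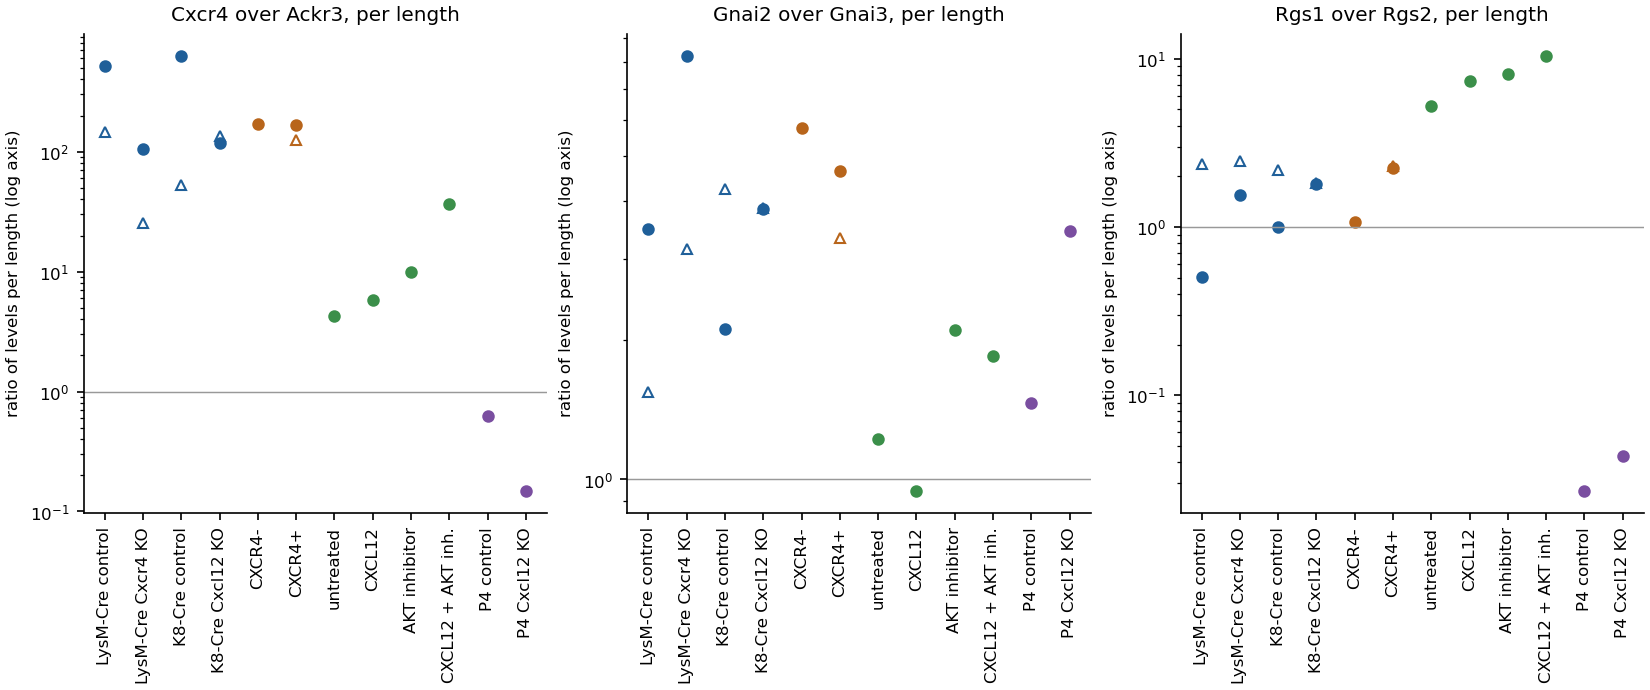
Ratio of levels per transcript length on log axes for Cxcr4 over Ackr3, Gnai2 over Gnai3 and Rgs1 over Rgs2, in all 17 libraries (blue, knockout experiments; orange, sort; green, culture; purple, P4). Cxcr4 over Ackr3 is above 1 in the 15 macrophage libraries and below 1 in both P4 libraries.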

How the data were processed

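RNA levels of 17 libraries were taken from 4 tables. The authors deposited log2 values, log2(CPM + 0.0001), for the macrophages, with the unit read from the values, and FPKM for P4 cells in the layout of a Cufflinks table, per the file headers. Per the submitters' processing notes, Partek and STAR 2.7.8a were used and the build was hg38, which is human, although the genes are mouse; the counting step is not given in the sources used here. Depth was the sum of CPM over the value of 1 read, since 74.4% to 89.9% of values up to 50 reads were whole within 0.05 reads; the rest were fractional, so no count test was used.

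Knockout changes (8 libraries, 4 groups, no block) and the sort (3 libraries) were fitted on log2(CPM + 1) by limma 3.58.1 (R 4.3.3) with a mean-variance trend. Genes entered with 1 CPM or more in 2 or more libraries. Tests were two-sided, and the Benjamini-Hochberg adjustment covered every gene in the fit, passing under 0.05. The pseudocount shrinks changes of low genes. Prior degrees of freedom were 97.3 beside 4 residual, and infinite beside 1 in the sort. The fit was also run on simulated data with independent noise, without the depth and repeat differences of these libraries. That run does not show how often true changes are found here. Ratios without replicates used a prior of 2 reads (0.0993 CPM) or 1 FPKM and needed a level of 10 or more in 1 of the libraries compared. Lengths are those of the longest principal transcript in GENCODE M21, also for the cultured libraries, where 2.16% of listed gene starts matched it. Promoters are RefSeq's, held for 5 of the 8 genes.

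The 8 genes, the 9 lists of 108 related genes and the marker lists were chosen with earlier results of these data known. Related genes that passed in the sort were named, at most 4 a list. In culture and P4 cells those named were picked among the genes past 2-fold, and others in both directions were left unnamed. Similar genes were the 3 with the highest r. Alternatives were another pseudocount, scaling, filter and trend, a block, fewer groups, and leaving out libraries. One related gene that passed in the sort is counted but not reported here by name.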

Additional observations from a re-analysis of the deposited data

Results flagged for a closer look

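In 3 genes the ratio of the library given CXCL12 to its partner without it had opposite signs without and with the AKT inhibitor. The log2 ratio was -0.40 without and 1.12 with the inhibitor for Cxcr4, -0.34 and 0.65 for Cxcl12, and -0.03 and 0.25 for Rgs2. For Rgs2 the ratio of -0.03 was smaller than the error from read counting alone, 0.10 on the log2 scale, so its sign is open. The share of all genes with opposite signs was not counted. Each ratio rests on 1 library per condition, and the difference was not tested.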

How the results depend on the processing

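For the Cxcr4 knockout the count of genes passing went from 1 to 8 with no filter on low values, 0 with no mean-variance trend, 2 with only the groups compared, and 1 to 150 when single libraries were left out. For the Cxcl12 knockout it went from 0 to 1 with the replicate block or only the groups compared, and ranged from 0 to 151 without single libraries. For the difference of the knockouts it went from 1 to 2 with no filter and 0 with no trend, and ranged from 1 to 30 without single libraries. In the sort it went from 1219 to 0 with no filter or no trend. Leaving out a sort library left no residual degrees of freedom or no contrast, so this was not run as a test.

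The main fit did not pair libraries by repeat number, and each group has 2 libraries. Deviations of same-numbered libraries correlated weakly, at 0.057 to 0.139 over 6 pairs of groups, from 17275 genes, all above 0. Repeat 2 libraries lay wholly above repeat 1 for 5.65% of genes and wholly below for 2.87%. Depth and small noncoding RNA also separated the repeats, so the low correlations do not show that the repeats were alike. With the replicate block no member passed in either knockout.

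Without single libraries, changes in the Cxcr4 knockout ranged from -2.27 to 0.64 for Cxcl12, -2.17 to -0.81 for Cxcr4, -0.93 to 0.80 for Gnai2, -0.11 to 0.96 for Rgs1, -1.0 to 0.16 for Rgs2 and -0.76 to 0.26 for Arrb2. In the Cxcl12 knockout they ranged from -0.61 to 2.96 for Cxcl12, -0.46 to 1.79 for Ackr3, -1.02 to 0.01 for Gnai3, -0.53 to 0.37 for Rgs1 and -1.14 to 0.39 for Rgs2. In the difference they ranged from -1.03 to 1.21 for Ackr3, -0.78 to 0.94 for Gnai2, -0.036 to 1.03 for Rgs1 and -0.81 to 0.72 for Rgs2.

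Leaving out both libraries with over 30% of genes at 0, an alternative chosen after seeing the data, gave 0.80 for Gnai2, -0.11 for Rgs1 and 0.16 for Rgs2 in the Cxcr4 knockout. In the Cxcl12 knockout it gave -0.61 for Cxcl12, -0.46 for Ackr3, 0.013 for Gnai3, 0.13 for Rgs1 and 0.39 for Rgs2, and in the difference -0.24 for Rgs1. Quantile normalization gave -0.82 for Ackr3 in the Cxcl12 knockout. Median-ratio scaling gave 0.057 for Rgs2 in the difference, and 0.11 for Cxcr4 and 0.049 for Gnai3 in the sort. All of these reverse the sign of the change first reported, and the cause was not tested. The median of all genes in the Cxcl12 knockout was 0.36, and 0.02 with quantile normalization.

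With no minimum level, genes past 2-fold numbered 8496 for CXCL12, 9019 for the inhibitor and 9786 for both against untreated, 9384 for both against the inhibitor, 10438 for both against CXCL12, and 3042 in P4 cells. A prior 5 times as large left 552 in P4 cells. These settings admit or shrink genes of low level by construction. The depth of the shallowest library, 8.60 M reads, puts 3 reads at 0.349 CPM.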
